A study of Mus musculus with 5 samples.

Results

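The microRNAs (miRNAs) miR-466, miR-669, miR-467 and miR-297 form 4 related mouse families, most of whose genes lie together in an intron of Sfmbt2. Every miRNA spot named for one of these families was taken, which gave 71 spots of 1265 on the array: 26 for miR-466, 27 for miR-669, 13 for miR-467, 4 for miR-297 and 1 that stands for miR-466m-5p and miR-669m-5p together. Of the 71 spots, 30 read a 5p arm, 29 a 3p arm and 12 a miRNA whose name gives no arm. The arms are the paired strands of the hairpin from which a miRNA is cut. Near-identical miRNAs share a probe on 7 of the spots, which carry all their names below, joined by a slash.

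Total RNA of 5 mouse cultures, labelled with Hy5, was measured on single-colour arrays, 1 for each culture. V6.5 ES is a wild-type embryonic stem (ES) cell line. PKM1 KI ES is named for a knock-in of PKM1, a form of pyruvate kinase. The lines 2TS22c and ZHBTc4 were made so that Sox2 and Oct3/4, respectively, can be switched off, and the labels name no switching agent for them. The 4 ES cultures had leukaemia inhibitory factor (LIF) in their medium, which keeps such cells from differentiating. The culture of embryoid bodies (EB), floating cell aggregates, came from V6.5 cells kept in suspension for 1 week with no LIF, so that they could differentiate. No feeder cells are named for any culture. Each line is a single culture, and an effect of a line, its culture and its array cannot be told apart.

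Sfmbt2 encodes a Polycomb group protein and is imprinted: in the mouse it is expressed from the paternal copy, above all in extraembryonic tissue. The miRNAs in its intron are cut from the host's transcript and arose in rodents by repeated duplication. In the mouse the cluster is known for its role in the placenta and for its expression in ES cells. A miRNA guides silencing of messenger RNAs mainly through its seed, the bases 2 to 8 from its 5′ end.

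The RefSeq gene table (GRCm38.p6) places 72 of 82 loci of these families inside Sfmbt2 on chromosome 2, and no other miRNA gene lies inside it. Of these, 29 are miR-669 genes, 24 miR-466, 14 miR-467 and 5 miR-297. Of the 71 neighbouring pairs of loci in the host, 58 join different families, and a miR-467 gene followed by a miR-466 and a miR-669 gene recurs 12 times. Copies of miR-669a, miR-467a (10) and miR-466b (8) make up most of that repeated stretch. Of the 12 miR-669a copies in the host, Mir669a-2 lies after it, at place 59 in the row. The other 10 loci are scattered over other chromosomes. By name, 57 spots read miRNAs with loci in Sfmbt2 only, 9 read miRNAs with loci outside it only and 5 read miRNAs with both.

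The mature sequences of 8 of the 71 members were found in the RefSeq miRNA table (GRCm38.p6), all from loci outside Sfmbt2. They are shown for the repeats that these members hold, with the seed in capitals. None is a miR-297 member, and whether the members inside Sfmbt2 hold the same repeats was not examined.
miR-466i-3p: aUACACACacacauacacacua
miR-467f: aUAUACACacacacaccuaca
miR-467g: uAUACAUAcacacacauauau
miR-466q: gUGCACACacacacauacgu
miR-466j: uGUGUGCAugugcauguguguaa
miR-466k: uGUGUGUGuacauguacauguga
miR-467h: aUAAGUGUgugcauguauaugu
miR-669n: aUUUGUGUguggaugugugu

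These sequences fall into an A and C rich form and a G and U rich form. A and C made up 86.4% of miR-466i-3p, 85.7% of miR-467f, 71.4% of miR-467g and 70.0% of miR-466q. G and U made up 90.0% of miR-669n, 73.9% of miR-466j, 69.6% of miR-466k and 68.2% of miR-467h. No 2 of the 8 had the same seed, while miR-467h shared its seed with miR-668-5p. Across families, miR-466i-3p and miR-467f matched at 16 bases in the best ungapped alignment, with an identical run of 13. Near-identical members can bind each other's probes, so a signal is that of a spot and may sum several miRNAs, and the spots are not independent of each other. A higher signal of 1 probe than of another does not mean more of its miRNA.

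All 5 arrays carried the defining miRNAs of mouse ES cells. Of the 14 spots for miR-290 to miR-295, the main ES cell cluster, 13 were detected on all 5 arrays. The 5 of them listed as markers were detected on every array, with a median log2 signal from 9.76 on EB to 11.78 on 2TS22c ES. The cluster was thus still detected on the EB array. A spot counted as detected when its brightness exceeded the blank spots' mean on that array by more than 2 SD. By that rule, 750 to 763 of the 1265 spots were detected on V6.5 ES, PKM1 KI ES and EB, 520 on ZHBTc4 ES and 507 on 2TS22c ES. The fewer detected spots on the last 2 arrays hold for members and other miRNAs alike, and ZHBTc4 ES lay alone on a second chip.

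The families were detected on every array. Of the 71 members, V6.5 ES and EB each had 58 detected (81.7%), PKM1 KI ES had 55 (77.5%), ZHBTc4 ES had 42 (59.2%) and 2TS22c ES had 36 (50.7%). Of the other miRNAs, 58.3% were detected on V6.5 ES, 58.0% on EB, 59.3% on PKM1 KI ES, 40.0% on ZHBTc4 ES and 39.4% on 2TS22c ES. In all, 60 members were detected on at least 1 array and 33 on all 5. The 11 members detected on none were miR-297b-5p, miR-466l-3p, miR-466n-3p, miR-669b-3p, miR-669g, both arms of miR-669h, miR-669j, both arms of miR-669k and miR-669m-3p. With a stricter limit set by the 24 negative control spots, 49 members were detected on at least 1 array and 24 on all 5.

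The members had their highest signal mostly on the V6.5 ES array. Of the 60 detected members, 46 (76.7%) were highest there, 4 on PKM1 KI ES, 3 on EB, 6 on ZHBTc4 ES and 1 on 2TS22c ES. Of the 899 other detected miRNAs, 115 (12.8%) were highest on V6.5 ES. Among spots detected on all 5 arrays, V6.5 ES was highest for 30 of 33 members and for 23 of 359 other miRNAs. The 3 exceptions among the members were miR-466h-3p, miR-466f-3p and miR-466i-5p. That condition is set mostly by 2TS22c ES and ZHBTc4 ES, where fewer spots were detected. Of the other miRNAs, 24.8% and 24.5% were highest on these arrays under it, against 20.9% and 21.8% without it. With 1 array a group, these counts have no replicate check and carry no test.

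**Figure D1:**
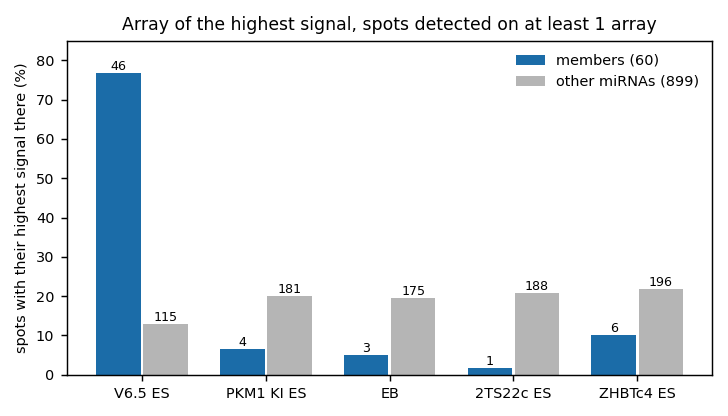
Percentage of the 60 members and of the 899 other miRNAs, detected on at least 1 array, whose highest normalised signal was on each of the 5 arrays, with the number of spots above each bar; other miRNAs with tied highest values are in no bar. V6.5 ES holds 46 of the 60 members and 115 of the 899 others.

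The median log2 signal of the 33 members detected on all arrays was 7.40 on V6.5 ES, 6.86 on PKM1 KI ES, 6.83 on EB, 6.94 on ZHBTc4 ES and 6.80 on 2TS22c ES. V6.5 ES stood apart, while the other 4 arrays lay close together. The same medians of the 359 other miRNAs were 6.92, 6.97, 6.99, 7.01 and 7.04 in the same order of arrays. For the 60 members, V6.5 ES exceeded the mean of the other 4 arrays by a median of 0.31 on the log2 scale, and for the other miRNAs the median was -0.02.

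Some further measures moved with this pattern. The local brightness around the member spots was also highest on V6.5 ES, with a median of 67 against 53 around the other miRNA spots. On the other 4 arrays the members' median was 51 on PKM1 KI ES, 38 on EB, 55 on ZHBTc4 ES and 43 on 2TS22c ES, against 49, 34.5, 50 and 44 around the other miRNAs in that order. With the local brightness used for the background correction, V6.5 ES was highest for 34 of the 60 members, or 56.7%, against 16.8% of the other miRNAs, and for 23 of the 33 detected on all arrays against 44 of 359. The 9 listed miRNAs of feeder, fibroblast and mesenchymal cells likewise had their highest median log2 signal on V6.5 ES, at 7.12, where all 9 were detected. That median was 6.61 on PKM1 KI ES with 7 detected, 6.71 on EB with 9, 6.27 on 2TS22c ES with 4 and 6.24 on ZHBTc4 ES with 4. The part of such cells in the members' signal was not tested.

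The miR-669 family held some of the larger contrasts. By name, miR-669f and its neighbours miR-669e, miR-669b and miR-669d stand near the 5′ end of the host's row of miRNA genes. The 3p spot miR-669f-3p had log2 signals of 8.94 on V6.5 ES, 8.19 on PKM1 KI ES, 7.86 on EB, 8.19 on ZHBTc4 ES and 8.03 on 2TS22c ES. Its uncorrected brightness was 588 on V6.5 ES and 161 to 364 on the other arrays. V6.5 ES was thus above the other arrays by 0.87 over their mean, or 1.82-fold. The 5p spot of the same hairpin, miR-669f-5p, had 8.03 on V6.5 ES, 7.30 on PKM1 KI ES, 7.03 on EB, 7.30 on ZHBTc4 ES and 7.04 on 2TS22c ES. Both arms of miR-669f therefore had V6.5 ES on top, with nearly the same excess (0.87 for 3p and 0.86 for 5p).

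The spot of the multi-copy miRNA miR-669a-3p/miR-669o-3p had 8.76 on V6.5 ES, 7.99 on PKM1 KI ES, 7.77 on EB, 8.07 on ZHBTc4 ES and 7.90 on 2TS22c ES. It was 1.78-fold higher on V6.5 ES than the mean of the others. The spot miR-669b-5p had 7.46 on V6.5 ES, 6.70 on PKM1 KI ES, 6.82 on EB, 7.12 on ZHBTc4 ES and 6.80 on 2TS22c ES, so ZHBTc4 ES came nearest to V6.5 ES. The dispersed member miR-669n, from chromosome 3, varied less, with 6.83 on V6.5 ES, 6.64 on PKM1 KI ES, 6.49 on EB, 6.80 on ZHBTc4 ES and 6.63 on 2TS22c ES. Its V6.5 ES and ZHBTc4 ES signals were nearly the same, and with local background miR-669n was lower on V6.5 ES than on each of the other arrays (differences of 0.14 for EB, 0.11 for PKM1 KI ES, 0.28 for ZHBTc4 ES and 0.35 for 2TS22c ES).

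In the miR-466 family, the spot miR-466b-3p/miR-466c-3p/miR-466p-3p had 8.50 on V6.5 ES, 7.93 on PKM1 KI ES, 7.54 on EB, 7.74 on ZHBTc4 ES and 7.99 on 2TS22c ES. The EB array was lowest for it. The spot miR-466a-3p/miR-466e-3p had 8.28 on V6.5 ES, 7.74 on PKM1 KI ES, 7.32 on EB, 7.48 on ZHBTc4 ES and 7.52 on 2TS22c ES, with EB again lowest. Among the 5p arms, miR-466f-5p had 7.40 on V6.5 ES, 6.90 on PKM1 KI ES, 6.90 on EB, 6.82 on ZHBTc4 ES and 6.69 on 2TS22c ES. The shared spot miR-466m-5p/miR-669m-5p had a like pattern, with 7.67 on V6.5 ES and 6.90 to 7.08 on the other arrays.

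Several miR-466 members did not share this order. The signal of miR-466i-5p lay between 6.81 and 6.86 on all 5 arrays, and that of miR-466h-3p was 6.72 on V6.5 ES, 6.78 on PKM1 KI ES, 6.77 on EB, 6.77 on ZHBTc4 ES and 6.60 on 2TS22c ES. Both members were detected on every array, also by the stricter limit. The dispersed miR-466j, a G and U rich member printed above, did follow the common order, with 7.67 on V6.5 ES, 7.11 on PKM1 KI ES, 6.97 on EB, 6.98 on ZHBTc4 ES and 7.01 on 2TS22c ES.

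All 13 miR-467 spots were detected on V6.5 ES, and 12 of them were highest there. The spot miR-467d-3p had 8.19 on V6.5 ES, 7.58 on PKM1 KI ES, 7.30 on EB, 7.46 on ZHBTc4 ES and 7.60 on 2TS22c ES. The local brightness beside miR-467d-3p on V6.5 ES was 321, where the spot itself read 361. With local background the difference of miR-467d-3p from V6.5 ES turned to 0.47 on EB, 0.49 on PKM1 KI ES and 0.36 on 2TS22c ES. By that correction miR-467b-3p was also above V6.5 ES on each other array, and miR-467h on EB, PKM1 KI ES and ZHBTc4 ES. The same held for miR-467e-5p on EB and miR-467e-3p on ZHBTc4 ES. The other spots of the 12 did not change side against V6.5 ES. The spot miR-467a-5p had 7.57 on V6.5 ES, 7.46 on PKM1 KI ES, 6.90 on EB, 7.10 on ZHBTc4 ES and 7.30 on 2TS22c ES, so PKM1 KI ES was close to V6.5 ES and EB was lowest. The exception was the dispersed miR-467g, with 6.42 on V6.5 ES, 6.13 on PKM1 KI ES, 6.10 on EB, 6.61 on ZHBTc4 ES and 6.31 on 2TS22c ES. The dispersed miR-467f, printed above, ranged from 6.19 on 2TS22c ES to 6.56 on V6.5 ES.

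The 3 detected miR-297 spots were all highest on V6.5 ES. The spot miR-297a-5p had 7.90 on V6.5 ES, 7.10 on PKM1 KI ES, 7.01 on EB, 6.94 on ZHBTc4 ES and 6.90 on 2TS22c ES. Its excess on V6.5 ES over the mean of the other arrays, 0.91 on the log2 scale or 1.88-fold, was the largest among the 60 detected members. The spot for the 3p arms of miR-297b, miR-297a and miR-297c had 6.67 on V6.5 ES and 6.37 to 6.49 on the other arrays. With local background the spot miR-297b-3p/miR-297a-3p/miR-297c-3p turned to 0.12 on EB, 0.16 on PKM1 KI ES and 0.22 on 2TS22c ES, relative to V6.5 ES.

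**Figure D2:**
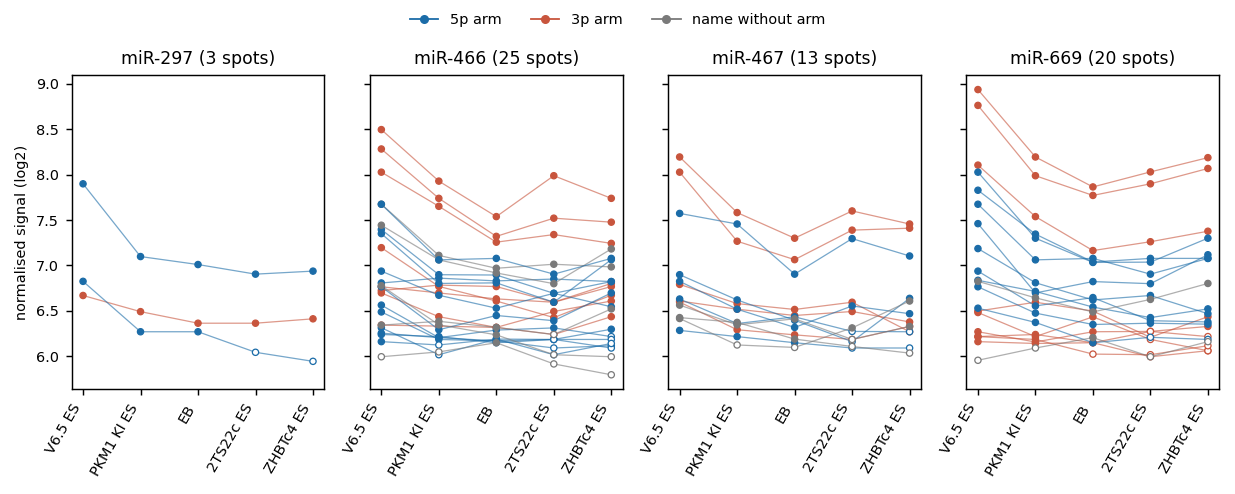
Normalised log2 signal of each detected member on the 5 arrays, by family, with a line joining the values of 1 spot and the arm in colour; filled points were detected on that array, open points were not, and the spot of miR-466m-5p/miR-669m-5p is drawn in both families. The highest lines in each panel fall from V6.5 ES to the other 4 arrays, among them miR-669f-3p from 8.94 to between 7.86 and 8.19.

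Spots of both arms were among those highest on V6.5 ES. Of the detected members, V6.5 ES was highest for 24 of 27 spots of 5p arms, 16 of 23 of 3p arms and 6 of 10 without an arm in the name. For 24 hairpins, a spot for each arm was detected on at least 1 array. V6.5 ES was highest for both arms of 17, for the 5p arm alone of 6 and for the 3p arm alone of 1, which was miR-466i. The 6 were miR-466f, miR-466h, miR-466m, miR-669c, miR-669d and miR-669e. In miR-669e, for example, the excess was 0.54 for the 5p spot and -0.03 for the 3p spot. The excess was larger in the 5p spot of 11 hairpins and in the 3p spot of 13. Hairpins that share a spot are not independent in these counts, which are those of the main processing. With local background, many of the 17 had an arm above V6.5 ES on another array. These were miR-297a, miR-297c, miR-466c, miR-466d, miR-466p, miR-467b, miR-467d, miR-467e, miR-669l and miR-669o. Neither arm of miR-466a, miR-466e, miR-466o, miR-467a, miR-467c, miR-669f or miR-669p changed side against V6.5 ES.

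Place in the host gene was set against the excess on V6.5 ES. Before the stretch of repeated miR-467, miR-466 and miR-669 genes lie 12 loci, 40 lie within it and 20 after it. Among detected spots whose loci fall in only 1 of these segments, V6.5 ES was highest for 8 of 12 before the repeats, 10 of 10 within them and 12 of 18 after them. The median excess was 0.41, 0.37 and 0.23 in that order. The ranges overlapped widely: -0.03 to 0.87 before, 0.15 to 0.77 within and -0.16 to 0.71 after. In the main processing, the 9 spots of the multi-copy miRNAs miR-467a, miR-466b, miR-466c, miR-669a and miR-669p were highest on V6.5 ES without exception. Their median log2 signal was 7.83 on V6.5 ES, 7.35 on PKM1 KI ES, 7.04 on EB, 7.10 on ZHBTc4 ES and 7.26 on 2TS22c ES. The local brightness around these 9 spots was also highest on V6.5 ES, with a median of 152 there and of 47 to 85 on the other arrays. With local background, miR-466c-5p was above V6.5 ES by 0.04 on EB and 0.18 on ZHBTc4 ES, and miR-669a-3-3p by 0.07 on EB. None of the other spots of the 9 changed side against V6.5 ES. Within the repeats, miR-467b-3p was also above V6.5 ES with local background. Its difference was 0.21 on EB, 0.35 on PKM1 KI ES, 0.38 on 2TS22c ES and 0.03 on ZHBTc4 ES. Before the repeats, miR-669l-5p and miR-669l-3p were likewise above V6.5 ES on another array. After the repeats this held for miR-466d-5p, miR-466p-5p, miR-467d-3p, miR-467e-3p, miR-467e-5p, miR-669c-5p and miR-669o-5p. The other spots counted above as highest on V6.5 ES in a segment did not change side with local background.

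**Figure D3:**
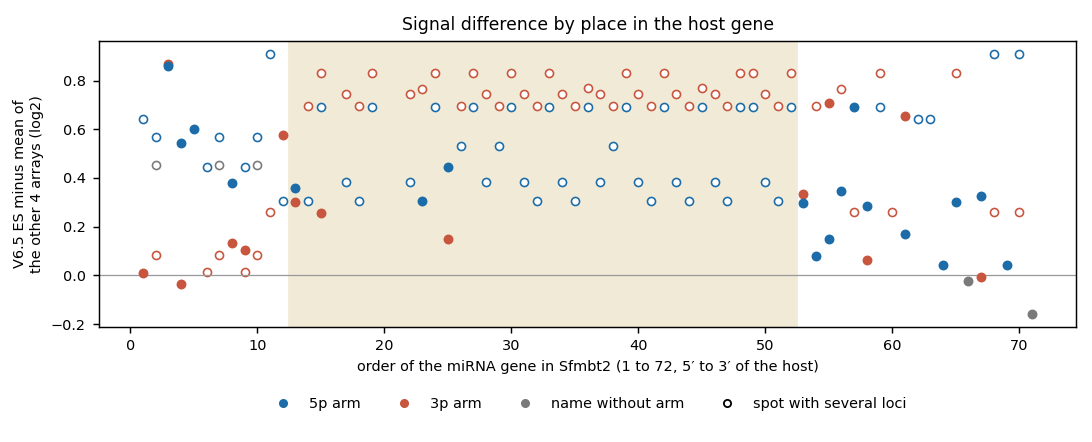
Excess of the V6.5 ES signal over the mean of the other 4 arrays (log2) for each detected spot, at every place its miRNA has in the order of the 72 miRNA genes inside Sfmbt2; filled points have 1 locus, open points have several and are drawn at each, and the shaded stretch is that of the repeated genes. Points within the shaded stretch lie between 0.15 and 0.83, and those at or below 0 lie outside it.

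In the main processing, most members with no locus in Sfmbt2 were also highest on V6.5 ES. V6.5 ES was highest for 36 of the 46 detected members with loci in Sfmbt2 only, for 4 of the 5 with loci in both and for 6 of the 9 with loci outside only. Of these 6, miR-669n was above V6.5 ES on each other array with local background. There miR-467h was above it by 0.02 on EB, 0.23 on PKM1 KI ES and 0.004 on ZHBTc4 ES. The rest of the 6, miR-466i-3p, miR-466j, miR-466k and miR-467f, did not change side. Against V6.5 ES, the median difference of the members outside Sfmbt2 was -0.32 on EB, -0.24 on PKM1 KI ES, -0.26 on 2TS22c ES and -0.16 on ZHBTc4 ES. For the members of Sfmbt2 alone it was -0.34, -0.30, -0.37 and -0.36. Binding of Sfmbt2 miRNAs to these probes was not tested.

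A set of 15 miRNAs outside the families also holds a run of UGUGUGU or CACACA in its RefSeq mature sequence. They serve only as a rough measure of spots with similar repeats, because most were dim. Their median uncorrected brightness on V6.5 ES was 61, against 101 for the members, and 5 of them were detected on all 5 arrays. Their highest log2 signal on each array was also that of the miR-290 to miR-295 spots, at 11.25 on V6.5 ES. V6.5 ES was highest for 1 of the 14 that were detected, for 3 with local background and for 5 (35.7%) in the deposited table, against 19.8% of the other miRNAs there. Their median difference from V6.5 ES was 0.02 on EB, 0.15 on PKM1 KI ES, -0.08 on 2TS22c ES and 0.03 on ZHBTc4 ES.

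The EB array is compared with V6.5 ES, the line from which the EB culture came, to ask what changed in culture without LIF. Of the 60 members detected on EB, on V6.5 ES or on both, 53 were lower on EB and 5 higher, with a median difference of -0.33 and a range of -1.07 to 0.25. Among all 850 miRNAs compared, 47.1% were lower, 51.2% were higher and the median was 0.01. One member, miR-669f-3p, was at least 2-fold lower (2.10-fold), where 0.235% of all miRNAs were, and none was 2-fold higher, where 0.118% were. Next came miR-669f-5p (1.99-fold lower), the spot of miR-669a-3p (1.99-fold) and miR-467a-3p (1.95-fold). The largest differences the other way among members detected on both arrays were 0.04 for miR-466h-3p and 0.03 for miR-466n-5p. The latter was below 0 with local background, with median scaling and in the deposited table.

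All 13 miR-467 spots were lower on EB, with a median of -0.32, although miR-467d-3p, miR-467b-3p, miR-467e-5p and miR-467h were higher with local background (by 0.47, 0.21, 0.03 and 0.02). The miR-466 spots were lower for 20 of 24, with a median of -0.32, and the miR-669 spots for 16 of 19, with -0.34. Within miR-669, the 8 detected 5p spots had a median of -0.49 and the 9 detected 3p spots of -0.07. Of these, 7 spots of 5p arms and 3 of 3p arms were detected on all 5 arrays, and there the medians were -0.57 and -0.99 in that order. The difference between arms was not tested. The 3 miR-297 spots had -0.55.

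Set against all 4 ES arrays in limma, the EB showed no called member. Of 959 miRNAs tested, 0.0% passed a Benjamini-Hochberg adjusted p of 0.05. None of the 60 members had an unadjusted p under 0.05, against 8 lower and 15 higher of all miRNAs (0.834% and 1.56%). With local background 3 members, all lower, had one, the lowest limma p being 0.00208, and without ZHBTc4 ES 1 had, at 0.0306. The lowest p among members was that of miR-467a-5p, whose EB signal was 0.45 ± 0.20 (SE) below the ES mean with a limma adjusted p of 0.99. The members' median was -0.09 with 48 of 60 lower, and without the V6.5 ES array it was -0.02 with 38 lower. Scaled to the spike controls, the median was 0.19 with 4 lower, where all miRNAs shifted by a median of 0.21.

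PKM1 KI ES is compared with V6.5 ES as knock-in against wild type. Of 58 members, 53 were lower and 5 higher, with a median of -0.29 and a range of -0.80 to 0.10. Of all miRNAs, 46.1% were lower and 51.6% higher, with a median of 0.02. No member was 2-fold lower or higher, where 0.114% and 0.229% of all miRNAs were. The lowest members were miR-297a-5p (1.74-fold lower), miR-669b-5p (1.70-fold), miR-467a-3p (1.69-fold) and the spot miR-669a-3p/miR-669o-3p (1.71-fold). The highest were miR-669c-3p at 0.10 and miR-466h-3p at 0.06 above, the latter turning to -0.27 with local background. The medians were -0.55 for miR-297, -0.30 for miR-466, -0.27 for miR-467 and -0.28 for miR-669.

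2TS22c ES differs from V6.5 ES in line and construct. Of 58 members, 55 were lower and 3 higher, with a median of -0.36. Of all miRNAs, 57.7% were lower and 41.5% higher, with a median of -0.06. No member reached 2-fold, where 2.24% of all miRNAs were 2-fold lower and 2.99% higher. The lowest members were miR-297a-5p and miR-669f-5p, each at 1.99-fold, miR-669f-3p at 1.87-fold and the spot of miR-669a-3p at 1.82-fold lower. The highest of those detected on both arrays was miR-466i-5p at 0.04, which was below 0 with spike scaling and in the deposited table. Only 36 of these members were detected on both arrays, and over those the median was -0.53. The miR-290 to miR-295 spots had a median of 1.21 in the same comparison, the other way from the families.

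ZHBTc4 ES gave similar values, although its array lay on another chip. Of 58 members, 49 were lower and 9 higher, with a median of -0.35. Of all miRNAs, 56.4% were lower and 41.9% higher, with a median of -0.05. Of the 58, 16 were detected on V6.5 ES only. Among the 42 detected on both arrays, 34 were lower, with a median of -0.35, where that of all miRNAs was 0.04. No member reached 2-fold, where 1.99% of all miRNAs were 2-fold lower and 2.61% higher. The lowest were miR-297a-5p at 1.95-fold, miR-466a-3p/miR-466e-3p at 1.75-fold, miR-466d-3p at 1.72-fold and miR-466b-3p/miR-466c-3p/miR-466p-3p at 1.69-fold lower. The dispersed miR-467g was 0.19 and miR-466g 0.18 higher, and both were below 0 with spike scaling. The miR-290 to miR-295 spots had a median of 1.18.

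The 4 comparisons share the V6.5 ES array, so their likeness is no separate evidence: 1 high array lowers all 4 differences together. Pairs without V6.5 ES gave smaller values. The median over members was -0.09 for EB minus PKM1 KI ES, -0.13 for 2TS22c ES minus PKM1 KI ES and -0.08 for ZHBTc4 ES minus PKM1 KI ES. On EB, 43 of 59 members (72.9%) were lower than on PKM1 KI ES, against 50.8% of the other miRNAs. The median was -0.004 for 2TS22c ES minus EB and 0.02 for ZHBTc4 ES minus EB.

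The Sox2 and Oct3/4 lines were compared with each other directly. Of 44 members, 28 were lower on 2TS22c ES than on ZHBTc4 ES and 15 higher, with a median of -0.11. The median was -0.03 with 25 of 44 lower under local background, and -0.01 with 24 lower under median scaling. Of all miRNAs, 49.8% were lower and 46.3% higher. No member was 2-fold apart, where 0.0% of all miRNAs were 2-fold lower and 0.163% higher. The lowest members were miR-466c-5p at 1.38-fold, miR-466f at 1.30-fold, miR-669b-5p at 1.25-fold and miR-466b-5p/miR-466o-5p at 1.24-fold lower. The spot miR-466b-3p/miR-466c-3p/miR-466p-3p was 1.19-fold and miR-669e-5p 1.15-fold higher, the latter turning to -0.10 on the log2 scale in the deposited table.

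**Figure D4:**
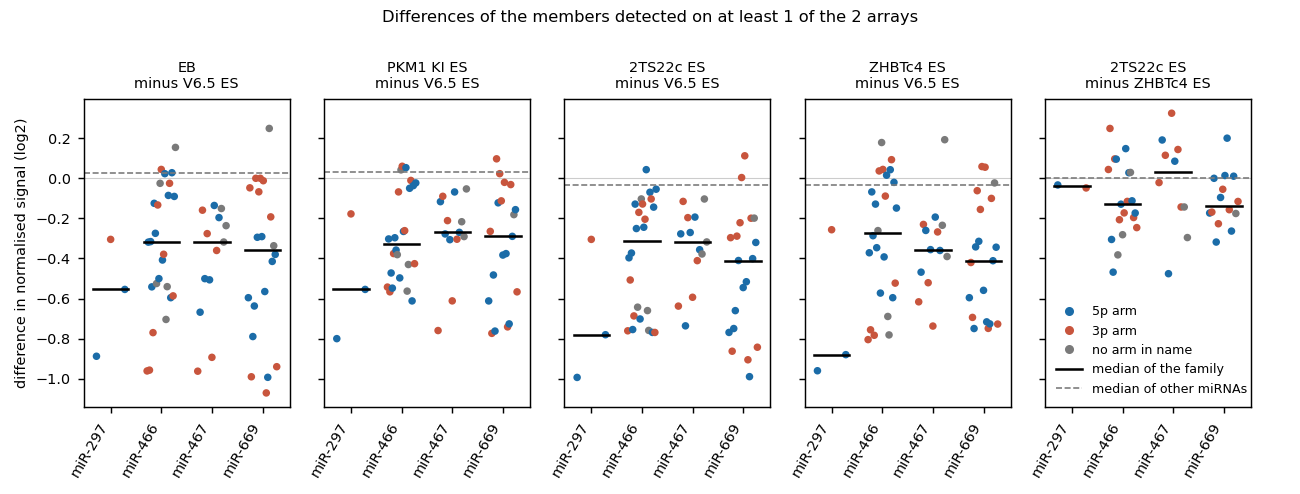
Difference in normalised log2 signal for each member detected on at least 1 of the 2 arrays, by family and comparison; colours give the arm, black bars the family median, and the dashed line the median of the other miRNAs. In the 4 comparisons with V6.5 ES every family median lies below the dashed line. In the comparison of 2TS22c ES with ZHBTc4 ES the family medians lie closer to 0. Those of miR-297, miR-466 and miR-669 lie below it, and the median over all members is -0.11.

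The size of these differences varied with the processing. The offset of 50 used here draws the folds of dim spots towards 1. With an offset of 16, the median on EB was -0.56, and 9 members were at least 2-fold lower. The share of all miRNAs past 2-fold was not counted with that offset, while their SD rose from 0.27 to 0.37. The authors' deposited table differs in background, scaling, offset and missing values at once, and which of these moved its values was not tested. In that table, the members' median difference from V6.5 ES was -1.13 on EB, -0.70 on PKM1 KI ES, -1.71 on 2TS22c ES and -1.56 on ZHBTc4 ES. There, 37 of 60 members were at least 2-fold lower on EB, against 10.4% of all miRNAs. The like counts were 13 of 58 against 5.15% on PKM1 KI ES, 44 of 58 against 33.7% on 2TS22c ES and 42 of 58 against 28.8% on ZHBTc4 ES. In this table the median of all miRNAs was itself -0.63 on 2TS22c ES and -0.55 on ZHBTc4 ES. Scaling to the spike controls instead moved the median of all miRNAs to 0.20 on EB, 0.06 on PKM1 KI ES, -0.20 on 2TS22c ES and -0.18 on ZHBTc4 ES. The members' medians were then -0.24, -0.28, -0.52 and -0.53, each below that of all miRNAs.

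**Figure D5:**
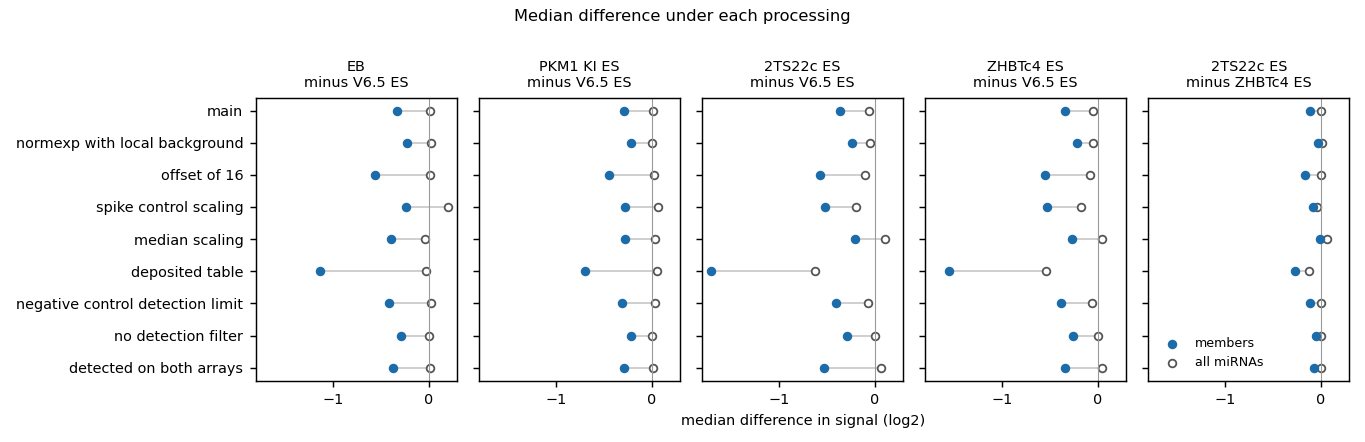
Median log2 difference of the members (filled) and of all miRNAs (open) in each of the 5 comparisons under each processing. The members' median lies below 0 in all of them and below that of all miRNAs in each comparison with V6.5 ES, and it is lowest in the deposited table, at -1.13 for EB.

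By the root mean square distance of centred profiles, the non-members most like the members' median profile were miR-1904, miR-135a-1-3p, miR-24-3p, miR-6418-5p and miR-1960, at 0.077 to 0.089 on the log2 scale over 5 arrays and among 359 spots detected on all of them. The signal of miR-24-3p was 9.65 on V6.5 ES, 9.42 on PKM1 KI ES, 9.44 on EB, 9.24 on ZHBTc4 ES and 9.37 on 2TS22c ES. The Dlk1-Dio3 list of 103 spots, from another large imprinted miRNA cluster, had a median difference from V6.5 ES of -0.01 on EB, 0.05 on PKM1 KI ES, -0.15 on 2TS22c ES and -0.13 on ZHBTc4 ES. The families' medians were lower in each.

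Since most members share a host gene, the sequence around the host's 2 RefSeq starts is shown, with each CG in capitals (GRCm38.p6, plus strand). The first is chr2:10370201-10370500 and the second chr2:10372186-10372485, each from 250 bases before the start to 50 after.
Sfmbt2 first start: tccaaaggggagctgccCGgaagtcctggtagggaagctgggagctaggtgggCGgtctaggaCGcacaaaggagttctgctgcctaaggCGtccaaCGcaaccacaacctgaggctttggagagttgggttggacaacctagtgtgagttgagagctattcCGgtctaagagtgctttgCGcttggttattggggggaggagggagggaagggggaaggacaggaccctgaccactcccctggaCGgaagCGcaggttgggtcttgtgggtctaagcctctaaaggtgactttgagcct
Sfmbt2 second start: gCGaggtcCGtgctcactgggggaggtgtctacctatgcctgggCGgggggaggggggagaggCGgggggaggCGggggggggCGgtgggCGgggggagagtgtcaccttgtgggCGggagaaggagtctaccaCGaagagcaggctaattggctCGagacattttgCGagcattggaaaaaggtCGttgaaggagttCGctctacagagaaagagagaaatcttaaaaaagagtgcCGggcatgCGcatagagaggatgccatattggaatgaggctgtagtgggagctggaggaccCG

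The first holds 9 CG and the second 16, where the median over 32851 promoters of that length is 7. Fewer CG than these are held by 54.2% and 67.0% of the promoters, respectively. The octamer letters ATGCAAAT, on which Oct3/4 is known to bind, and the letters ACAATG, a core bound by Sox proteins, occur in neither window on either strand, while 1.74% and 12.6% of all promoters hold them. No match says only that these letters are not in these windows.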

How the data were processed

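Each of the 5 groups holds 1 array. Per the file headers, the deposited scanner files give for each spot a median pixel intensity without background subtraction; the detector gain was 43 for EB, 46 for 2TS22c ES and 47 for the others. Neither labels nor headers state how the authors made their deposited table of intensity values. Against the scanner values it was linear (Pearson r across spots of 0.99998 or more), so it runs in their direction and is not in logs. Its median was 25 on each array, unlike that of the scanner values, so its scale is not that of the scanner. The choice of its background is not given in the sources used here. Missing values (275 to 574 per array) were set to the array's lowest.

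Intensities were corrected with normexp in limma 3.58.1 (R 4.3.3, offset 50), quantile-normalised over the 1265 miRNA spots and put on the log2 scale. Pairs of arrays have no test. The one test was limma (lmFit, eBayes, Benjamini-Hochberg) of EB against the 4 ES arrays; the lone EB array is assumed to vary as the ES arrays do, and the number of arrays limits the precision. Median differences and folds of dim spots are damped by the offset. No build is named in the files; loci were matched by name through RefSeq (Mir466 read as miR-466a), and only RefSeq sequences carry coordinates. Figures and counts used Python 3.11.15.

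The members and lists were chosen with earlier results of these data known. Named are the member of highest mean signal in each family and arm among those detected on 3 or more arrays; in each comparison, among members detected on both arrays, the 4 lowest and the 2 highest; and members 2-fold apart. Members named otherwise were chosen after their values were seen. A rule on seed groups named none, since no 2 sequenced members share a seed.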

Additional observations from a re-analysis of the deposited data

How the results depend on the processing

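No median changed sign in the 5 comparisons under any alternative run. The medians over members moved by more than the SD over all miRNAs only in the deposited table: -1.13 (EB), -0.70 (PKM1 KI ES), -1.71 (2TS22c ES) and -1.56 (ZHBTc4 ES) against V6.5 ES, and -1.10, -0.67, -1.73 and -1.60 over members with a value on both arrays. Smaller moves still passed 1.5 times. With an offset of 16 the medians were -0.56, -0.45, -0.58 and -0.56 in the same order. With local background they were -0.24 on 2TS22c ES and -0.22 on ZHBTc4 ES, with spike scaling -0.53 on ZHBTc4 ES and with median scaling -0.21 on 2TS22c ES. With the negative control limit passed on both arrays they were -0.50 on EB and -0.64 on 2TS22c ES. Between 2TS22c ES and ZHBTc4 ES the median was -0.11, and -0.05 with no detection filter, -0.07 over members detected on both arrays and -0.27 in the table. Members at least 2-fold apart on EB numbered 3 with local background, 9 with an offset of 16, 0 with spike scaling, 4 with median scaling, and 37 in the deposited table, also over values on both arrays. On PKM1 KI ES they numbered 1 with an offset of 16 and 13 or, over values on both arrays, 14 in the deposited table. On 2TS22c ES they numbered 3, 9, 18 and 2 in the same order of settings, and 44 or 40 in the table. On ZHBTc4 ES they numbered 2, 4, 15 and 1, and 42 or 39 in the table. Between 2TS22c ES and ZHBTc4 ES there was 1 with local background and 1 in the table. Apart from the shares given above for the deposited table, the share of all miRNAs past 2-fold was not counted under these settings. The counts therefore cannot be read as particular to the members. On 2TS22c ES the SD over all miRNAs was 0.49 in the main run and 0.64 with an offset of 16. By limma, no miRNA at all was called in any of the 12 alternatives, those leaving out 1 ES array included (0 in each), so these counts say nothing about stability. The fit with the chip as a block is that without ZHBTc4 ES. The cause of these changes was not tested.

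The count of lower members on EB fell from 53 to 43 of 60 with local background, where 12 members changed side, the largest being miR-467d-3p, from -0.89 to 0.47. Likewise the count fell from 53 to 46 of 58 on PKM1 KI ES, 55 to 44 on 2TS22c ES and 49 to 45 on ZHBTc4 ES. In that order, 13, 12 and 12 members changed side. On ZHBTc4 ES it went from 49 to 58 of 58 with spike scaling. Among the members named for their difference in a comparison, those that reversed were miR-466n-5p on EB (-0.25 with local background, -0.0452 with median scaling, -0.37 in the table), miR-466h-3p on PKM1 KI ES (-0.27 with local background), miR-467g on 2TS22c ES (0.20 with local background, 0.0699 with median scaling, 0.39 in the table) and on ZHBTc4 ES (-0.0036 with local background, -0.0452 with spike scaling), miR-466i-5p on 2TS22c ES (-0.33 with spike scaling, -0.77 in the table), miR-466g on ZHBTc4 ES (-0.0216 with spike scaling, -0.24 in the table), and miR-669e-5p between 2TS22c ES and ZHBTc4 ES (-0.10 in the table). The limit passed on both arrays, the exclusion of members outside Sfmbt2 and the table over values on both arrays were chosen after seeing the data. No paired analysis was possible because each group holds 1 array.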
